A study of Bos taurus with 14 samples.

Results

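MiRNAs of blood plasma were compared with those of blood leucocytes in cows in week 1 of a high-grain diet. The comparison used every library labelled high grain, namely 4 of plasma (numbers 5, 6, 7 and 8 in their labels) and 3 of leucocytes (numbers 5, 7 and 8), which are 7 of the 14 small RNA libraries of the study. The animals were 4 non-lactating Holstein cows with a ruminal cannula, which were fed 100% forage (FD, the other 7 libraries) and then moved to a diet with 65% concentrate (HG), a model of subacute ruminal acidosis. No library came from a cow without a cannula, so all groups share it. Blood was drawn into EDTA tubes and spun. The buffy coat gave the leucocytes, and the plasma was spun again to free it of cells. The leucocytes were not sorted, so a level averages over all cells of the buffy coat, and fewer cells of a type cannot be told apart from less RNA per cell. Plasma and leucocyte RNA were extracted with different kits and sequenced to different depths, so sample type and kit cannot be told apart in any result given here. Depth differed with sample type too, and values at equal depth are given where they bear on a result.

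A miRNA is a short RNA cut from a hairpin precursor that guides Argonaute proteins to target messages and lowers their translation or stability. Some miRNAs are made by nearly every cell and others by a single lineage. Plasma carries miRNAs in vesicles, on lipoproteins and bound to Argonaute, shed by blood cells, vessel walls and distant organs such as liver, whereas a buffy coat holds white cells with a varying number of red cells and platelets.

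Between 613273 and 2510751 reads per plasma library and between 18553330 and 38088063 per leucocyte library were assigned to bovine miRNA names. Levels are given as CPM, the reads of a name per 1000000 of these reads. The names of miR-451 in cattle and man, which share their reads, were added. A total of 3 reads, the most that a count of 0 allows for counting error alone, corresponds to 1.19 to 4.89 CPM in plasma and 0.0788 to 0.162 CPM in leucocytes. Reads that match several names were divided among them by the authors, so levels of different miRNAs are not on an equal footing. Fold changes compare a miRNA with itself, and shares, ranks by abundance and arm ratios carry this limit.

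Of 672 names with reads, 436 had at least 10 reads in at least 3 libraries and were tested. By edgeR with TMM scaling, 81 names (18.6%) were higher in plasma and 176 names (40.4%) were higher in leucocytes, with an adjusted p under 0.05 and an absolute log2 fold change of at least 1, so 58.9% were called in either direction. The split depended on the fit. TMM lowered all plasma to leucocyte ratios by a median of 1.91 on the log2 scale against scaling by library size, under which 142 names were higher in plasma and 73 in leucocytes. With RLE factors the counts were 97 and 145, with library sizes taken without 4 erythroid names 116 and 102. DESeq2, which changes the test as well as the scaling, gave 107 and 106, although its median log2 fold change of -0.39 over all names was that of RLE. Every one of the 81 plasma names was also called in plasma in the other 4 fits. Those fits all shifted the log2 ratios towards plasma against TMM. The median shift was 0.58 with RLE, 0.65 with DESeq2, 1.21 without the erythroid names and 1.91 by library size. A plasma call by TMM could thus hardly be lost in them. Of the 176 leucocyte names, 40 (9.17% of the names tested) were called in each fit, and none turned to plasma. No read was found in any plasma library for 48 of the 176 and 12 of the 40. Of the names tested, 95 had under 10 reads in every plasma library and so passed the filter through the deeper leucocyte libraries alone. These 95 hold 84 of the 176 and 24 of the 40 leucocyte calls, which could hardly have come out otherwise. Names with 10 reads in some but fewer than 3 plasma libraries also needed leucocyte libraries to pass and are not among the 95. The filter acts on plasma calls too. For example, miR-206 passed it through plasma libraries alone, and miR-1246 and miR-12034 needed plasma reads to pass. With the leucocyte libraries thinned to the depth of the smallest plasma library, 87 names were called in plasma and 73 in leucocytes. With the library number as a block, 52 names were called in plasma and 160 in leucocytes. Of the miRNAs described below, miR-133a (2.84, adjusted p = 0.109), miR-31 (0.98, adjusted p = 0.123), miR-885 (1.73, adjusted p = 0.0800), miR-194 (-1.06, adjusted p = 0.0546), miR-27b (0.96, adjusted p = 0.0581) and miR-363 (-1.46, adjusted p = 0.0546) missed the threshold with the block. The names called in all 5 fits are called stable below, a choice made after the counts were seen. For plasma names the word adds little to the TMM call, and it is a strict mark for leucocyte names only. Calls fell to 42 and 71 without leucocyte library 5, to 43 and 72 without 7 and to 50 and 74 without 8, with 2 leucocyte libraries remaining. Of the plasma names described below, miR-31, miR-192, miR-885, miR-24-3p, miR-133a, miR-125b and miR-12034 missed the threshold when some single library was left out. Fold changes below are log2 plasma over leucocytes from the TMM fit of edgeR, with its SE and Benjamini-Hochberg adjusted p.

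**Figure D1:**
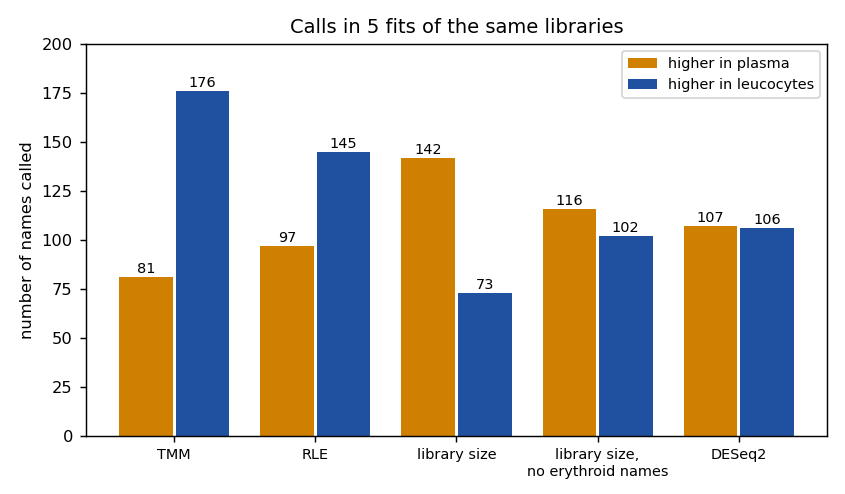
Number of miRNA names (y axis, from 0) called higher in plasma (orange) or in leucocytes (blue) on the high-grain diet in each of 5 fits (x axis), 4 scalings in edgeR and DESeq2. The plasma calls range from 81 to 142 and the leucocyte calls from 73 to 176.

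**Figure D2:**
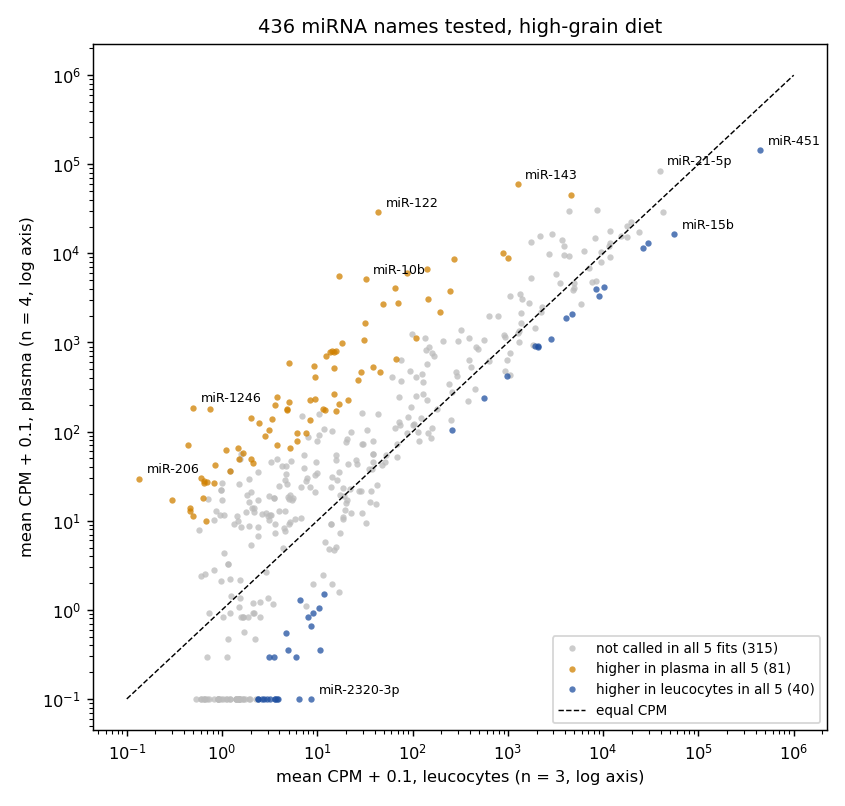
Mean CPM plus 0.1 in plasma (y axis, n = 4) against leucocytes (x axis, n = 3) on log axes for the 436 names tested, with the dashed line at equal CPM. The 81 stable plasma names (orange) lie above the line and the 40 stable leucocyte names (blue) below it.

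The stable plasma names included miRNAs known from liver, vessel walls, epithelia and muscle, and the stable leucocyte names included miR-451 and members of the miR-15 and miR-17 families. The 81 plasma names together took 20.3, 21.4, 21.7 and 25.2% of the reads of plasma libraries 5, 6, 7 and 8 but 0.681, 0.858 and 1.40% of those of leucocyte libraries 5, 7 and 8. The 40 leucocyte names took 63.1, 60.4 and 57.5% of the leucocyte reads and 11.6, 28.1, 28.7 and 13.4% of the plasma reads. These shares describe names chosen by their levels and are no test.

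The largest log2 fold change towards plasma was that of miR-122, the liver miRNA that takes up most of the miRNA pool of hepatocytes (chromosome 24, 58095656-58095677 on UMD3.1). It stood at 42254, 23366, 16577 and 33424 CPM in plasma libraries 5, 6, 7 and 8 and at 32.8, 36.5 and 61.2 CPM in leucocyte libraries 5, 7 and 8, so the groups lay far apart and its mean was 665-fold higher in plasma. Its log2 fold change was 7.54 (SE 0.617, adjusted p = 9.73e-05). Plasma libraries 5 and 8, the deeper pair, held the higher values.

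Other miRNAs of liver, kidney and intestine followed. MiR-215, which is made with miR-194 in gut epithelium, had 5974, 3582, 1849 and 10610.5 CPM in plasma and 17.1, 14.2 and 19.2 CPM in leucocytes, and a log2 fold change of 6.48 (SE 0.804, adjusted p = 0.000439). MiR-192, its close relative, had 10859, 7528, 4353 and 17472 CPM in plasma and 866, 869 and 919.5 CPM in leucocytes, a fold change of 1.62 (SE 0.532, adjusted p = 0.0288), and again its highest plasma values came from libraries 8 and 5. MiR-193a was raised on both arms, with 5.0 for 5p and 4.37 for 3p. MiR-885, another liver miRNA, had 62.1 to 394.6 CPM in plasma, 7.12 to 17.6 CPM in leucocytes and a fold change of 2.12 (SE 0.729, adjusted p = 0.0339). An exception was miR-194, called in leucocytes by TMM at -1.07 although each plasma library had more CPM than each leucocyte library (848.4 to 1293 against 531.3 to 608.1), and it turned to 0.93 when scaled by library size. MiR-194b and miR-194b-3p, which had equal values in every library, were not called (log2 fold change 0.74, adjusted p = 0.759), and both are counted below. Of the 9 liver and gut names tested, 6 were called in plasma, all stable, and 1 in leucocytes, with a median log2 fold change of 2.12 against -0.95 over all names tested. As a share of reads the list made up 6.08, 3.69, 2.46 and 6.36% of the plasma libraries and 0.147 to 0.156% of the leucocyte libraries.

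Vessel-wall miRNAs were likewise higher in plasma. Both arms of miR-126, encoded in the endothelial gene EGFL7, were called, and they are all members of the endothelium list that were tested. MiR-126-3p (chromosome 11, 104131455-104131475) had 3583, 5601, 6447 and 8687 CPM in plasma and 56.1, 71.9 and 132 CPM in leucocytes, with a fold change of 4.23 (SE 0.428, adjusted p = 0.000143). For miR-126-5p the fold change was 3.85 (SE 0.442, adjusted p = 0.00024). Neither arm overlapped between the groups, and leucocyte library 8 had the highest leucocyte value of both.

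MiR-143 and miR-145, which are transcribed together and maintain the contractile state of smooth muscle, rose to a similar degree. MiR-143 (chromosome 7, 62809359-62809380) was among the most abundant plasma miRNAs at 32011, 68100.2, 82755 and 54608 CPM, against 714, 991 and 2131 CPM in leucocytes, with a fold change of 3.61 (SE 0.403, adjusted p = 0.00023). MiR-145, from the same cluster, had 358.1 to 1132 CPM in plasma, 9.40 to 24.8 CPM in leucocytes and a fold change of 3.76 (SE 0.488, adjusted p = 0.000512). In both, plasma library 7 was highest and plasma library 5 lowest. MiR-214, which shares a transcript with a miR-199a hairpin in connective tissue, had 81.6, 165, 242 and 220.2 CPM in plasma and 0.604, 0.368 and 0.970 CPM in leucocytes and rose by 6.12 (SE 0.665, adjusted p = 0.000196). Unlike these, miR-199b had 147.8 to 744.6 CPM in plasma and 966.9 to 1182 CPM in leucocytes and was called in leucocytes by TMM (log2 fold change -3.36, SE 0.490, adjusted p = 0.00103), though not in every fit. Of 7 smooth muscle and mesenchyme names, 4 were called in plasma, all stable, and 3 in leucocytes, none stable.

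All 8 epithelial names tested were higher in plasma, each in all 5 fits, where 18.6% of the names tested were called in that direction. They hold the miR-200 family, 5 names from 2 clusters that share their transcripts, which represses the ZEB factors and keeps cells epithelial. MiR-200a had 1418, 3822, 3735 and 1964 CPM in plasma and 26.9, 31.7 and 86.3 CPM in leucocytes (log2 fold change 3.88, SE 0.487, adjusted p = 0.000446). MiR-200b, from the same cluster on chromosome 16, followed at 3.75 (SE 0.547, adjusted p = 0.00103), and miR-141 and miR-200c, a pair on chromosome 5, at 3.90 and 3.32. MiR-205, of stratified epithelium, had 2964, 9619, 10618 and 3416 CPM in plasma and 79.2, 93.9 and 255 CPM in leucocytes (log2 fold change 3.58, SE 0.561, adjusted p = 0.00118). In each of these, plasma libraries 6 and 7 were well above libraries 5 and 8. MiR-375, known from pancreatic islets and endocrine cells of the gut, did not share that order, with 2490.1, 3269, 1923 and 4559.9 CPM in plasma, and it had 45.3 to 237.9 CPM in leucocytes (log2 fold change 2.55, SE 0.558, adjusted p = 0.00471). The smallest change was that of miR-31, at 1.30 (SE 0.432, adjusted p = 0.0293). The list summed to 1.02, 2.66, 2.72 and 1.40% of reads in plasma libraries 5, 6, 7 and 8 and to 0.0334, 0.0484 and 0.0910% in leucocyte libraries 5, 7 and 8.

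Some striated muscle and nerve miRNAs and the miR-302 cluster were also higher in plasma, and all those named with a value except miR-206 were highest in plasma libraries 6 and 7. MiR-1, which with miR-133a drives muscle differentiation, had 323, 1223, 2005 and 393 CPM in plasma and 11.1, 13.5 and 29.8 CPM in leucocytes (log2 fold change 3.77, SE 0.689, adjusted p = 0.00219). MiR-133a changed by 3.21 (SE 0.807, adjusted p = 0.00888) and miR-206, a muscle miRNA with 9.56 to 49.8 CPM in plasma and 0 to 0.0539 CPM in leucocytes, by 7.39 (SE 1.34, adjusted p = 0.00209). In the muscle and heart list 3 of the 4 names tested were called in plasma. MiR-206 is among the 3 and passed the read filter through plasma libraries alone, so its call could hardly have come out otherwise. The neuronal miR-9-5p had 344, 1314, 2163 and 401 CPM in plasma and 20.7, 27.1 and 44.3 CPM in leucocytes (log2 fold change 3.08, SE 0.646, adjusted p = 0.00391), and miR-124a changed by 3.25 (SE 0.728, adjusted p = 0.00521), a name whose reads are shared with miR-124b. In the nervous tissue list 5 of 9 were called in plasma and none in leucocytes, and miR-128, miR-7, miR-138 and miR-129-3p were not called (-1.10 to 0.08). MiR-302b, of a cluster active in embryonic stem cells, had 189, 680.0, 1125 and 202 CPM in plasma and 4.52, 6.55 and 16.1 CPM in leucocytes (log2 fold change 3.94, SE 0.747, adjusted p = 0.00247), and its 3 neighbours on chromosome 6 were called too. For miR-183, of a sensory organ cluster, the fold change was 4.10 (SE 0.701, adjusted p = 0.00175).

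**Figure D3:**
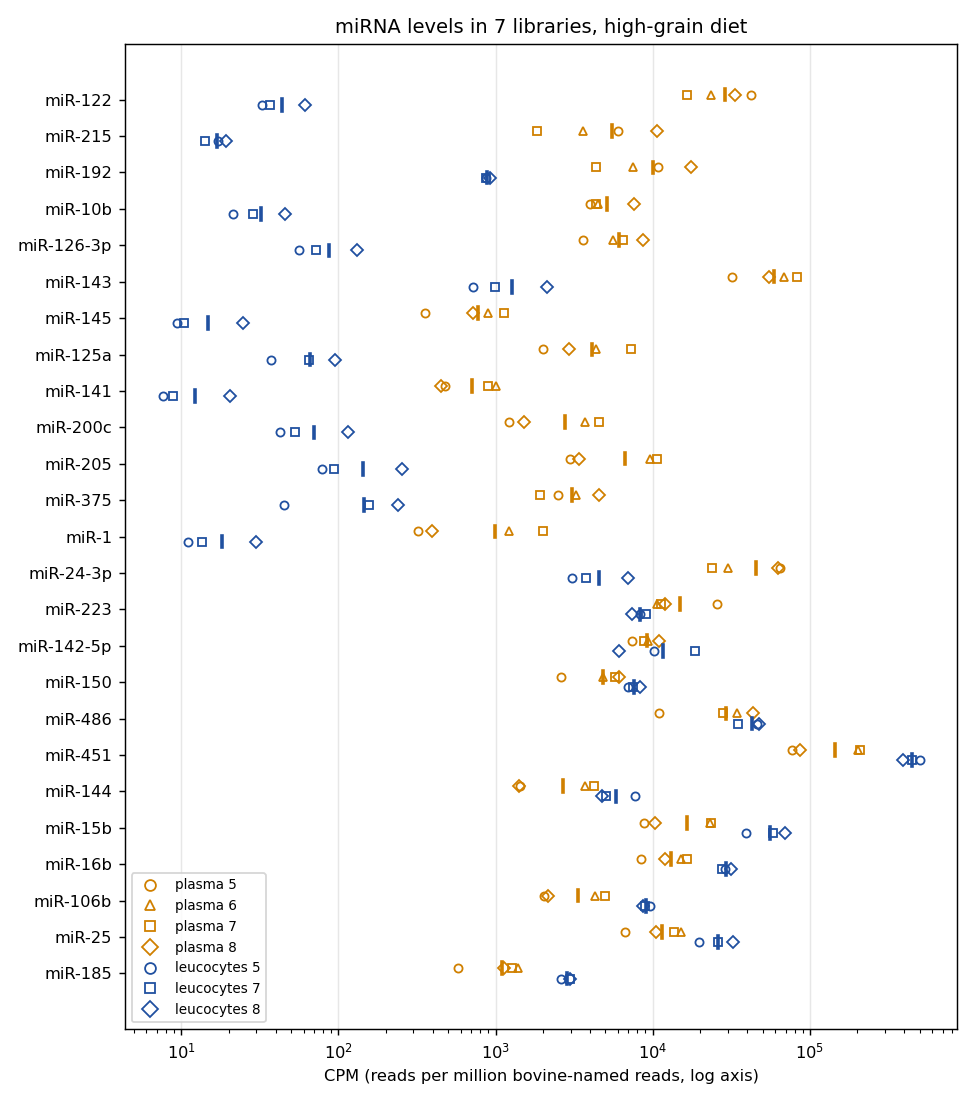
CPM on a log axis (x) of 25 miRNAs (y) in the 7 libraries, with plasma in orange and leucocytes in blue, a marker shape for each library number and a vertical bar at each group mean. MiR-122 lies at 16577 to 42254 CPM in plasma and 32.8 to 61.2 in leucocytes, while miR-142-5p and miR-486 overlap.

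The family of miR-10, miR-99, miR-100 and miR-125, whose members sit in or near the HOX clusters or with let-7 genes, had 6 of 8 names called in plasma, all stable, and 2 in leucocytes, none stable. MiR-10b (chromosome 2, 20797625-20797647) had 3999.6, 4469, 4357 and 7598 CPM in plasma and 21.4, 28.7 and 45.9 CPM in leucocytes (log2 fold change 5.43, SE 0.452, adjusted p = 9.73e-05), with plasma library 8 highest. Its relative miR-10a changed less, by 2.10 (SE 0.412, adjusted p = 0.00275). MiR-125a had 1994, 4332, 7286 and 2945 CPM in plasma and 37.5, 65.1 and 95.1 CPM in leucocytes (log2 fold change 4.00, SE 0.470, adjusted p = 0.000305), miR-100 changed by 3.90 (SE 0.477, adjusted p = 0.000359) and miR-125b by 1.56 (SE 0.372, adjusted p = 0.00676). Of the miR-30 family, miR-30a-5p was higher in plasma (4759.5, 10966, 11970.2 and 6664 against 196, 255 and 355 CPM), with a fold change of 3.02 (SE 0.329, adjusted p = 0.000196). MiR-30e-5p had nearly level CPM, 21845, 21168, 20808 and 25308 in plasma and 17225, 21792 and 20318 in leucocytes, so its TMM value of -1.76 and its library size value of 0.17 differ only through the scaling. MiR-24-3p, a broadly expressed miRNA, had 64681, 30239, 23778 and 62726 CPM in plasma and 3051, 3739 and 6931 CPM in leucocytes (log2 fold change 1.5, SE 0.522, adjusted p = 0.035). Its cluster mate miR-27b had 25423, 29178, 28429 and 36964 CPM in plasma and 3206, 3488 and 6341 CPM in leucocytes, and its fold change of 0.89 (SE 0.291, adjusted p = 0.0281) was below 1 and was not called.

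A few names of low abundance were almost confined to plasma. MiR-1246 had 53.4, 271, 8.85 and 409 CPM in plasma and 0.105, 0.442 and 0.647 CPM in leucocytes (log2 fold change 7.0, SE 1.48, adjusted p = 0.00403), with a spread of its plasma libraries from 8.85 to 409.1 CPM. MiR-12034, a bovine name of unknown role, was present in 3 of the 4 plasma libraries (70.1, 0, 61.9 and 148 CPM) and had 0.0788 to 0.515 CPM in leucocytes (log2 fold change 5.87, SE 1.68, adjusted p = 0.0164), and with its 0 in library 6 it was the one plasma call whose groups overlapped. Both miR-1246 and miR-12034 needed plasma reads to pass the filter, which left their calls little room to come out otherwise. When all libraries were thinned at random to the reads of the smallest, 613273, a single draw left 16 names with at least 2 reads in all 4 plasma libraries and in no leucocyte library. They include miR-1246, miR-206, miR-217, miR-302a, miR-302c, miR-370 and miR-495, picked after their values were seen. In the same draw 7 names were in all 3 leucocyte libraries and in no plasma library, among them miR-191b and miR-2320-3p, also picked afterwards. Without thinning, no name was present in all plasma libraries and absent from all leucocyte libraries.

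Leucocytes were led by miR-451, the red cell miRNA that Argonaute 2 itself cuts from its hairpin (chromosome 19, 20796875-20796897). It took the largest share of every leucocyte library, with 499323, 443768 and 392534 CPM, against 77394, 202950.0, 208721 and 86085 CPM in plasma, where libraries 6 and 7 were above 5 and 8. Its log2 fold change was -3.69 (SE 0.373, adjusted p = 0.000143), called in every fit. MiR-144, from the same erythroid transcript, had 7746, 5072 and 4766 CPM in leucocytes and 1422, 3709.6, 4204 and 1419 CPM in plasma (log2 fold change -3.21, SE 0.444, adjusted p = 0.000805), called by TMM but not in each fit. MiR-486, also of red cells, overlapped between the groups, at 46364, 35047 and 47169.5 CPM in leucocytes and 10918, 34596, 28172 and 43515 CPM in plasma (log2 fold change -2.55, SE 0.418, adjusted p = 0.0014). With miR-363 (-1.30 by TMM, 0.72 by library size), the 4 erythroid names summed to 55.4, 48.4 and 44.5% of the leucocyte reads and 8.98, 24.1, 24.1 and 13.1% of the plasma reads. The part of red cells in the other leucocyte levels was not tested.

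The miR-15 and miR-16 names, which target BCL2, were also higher in leucocytes. MiR-15b (chromosome 1, 107923398-107923419) had 39474, 58650.4 and 69144 CPM in leucocytes and 8791, 23256, 23337 and 10387 CPM in plasma (log2 fold change -3.76, SE 0.341, adjusted p = 0.000111), and miR-16b from the same cluster on chromosome 1 had 28862, 27608 and 31417 CPM and 8368, 15143, 16441 and 11998 CPM (log2 fold change -3.17, SE 0.250, adjusted p = 9.73e-05). Neither overlapped. MiR-15a changed by -3.26 (SE 0.332, adjusted p = 0.000143). MiR-16a was closer, with 21302, 22153 and 28575 CPM in leucocytes and 15097, 17998, 18684 and 17752 CPM in plasma (log2 fold change -2.41, SE 0.225, adjusted p = 0.000115), and was not stable. The related miR-195, made in other tissues, went the opposite way, with 24.4 to 33.9 CPM in leucocytes and 336.8 to 672.4 CPM in plasma (log2 fold change 2.06, SE 0.357, adjusted p = 0.00179). Of the 7 names of the family 4 were called in leucocytes, 3 of them stable, and 3 in plasma, all stable.

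The miR-17 to miR-92 clusters, growth-promoting miRNAs of dividing and lymphoid cells, had 14 of 15 names called in leucocytes, 6 of them stable, beside 40.4% and 9.17% of all names tested. Of the 14, 12 had at least 10 reads in some plasma library. MiR-363, among the 14, is also in the erythroid list and turned to 0.72 by library size. The 3 miRNAs of the MCM7 gene on chromosome 25 were all stable. MiR-106b had 9607, 8990.2 and 8686 CPM in leucocytes and 2042, 4275, 4978 and 2162 CPM in plasma (log2 fold change -3.47, SE 0.332, adjusted p = 0.000129), miR-93 changed by -3.25 (SE 0.255, adjusted p = 9.73e-05), and miR-25 had 19792, 26077 and 32514 CPM and 6705, 15054, 13607 and 10567 CPM (log2 fold change -3.16, SE 0.260, adjusted p = 9.73e-05). On chromosome 12, miR-19b changed by -3.28 (SE 0.332, adjusted p = 0.000143) and miR-20a by -3.25 (SE 0.348, adjusted p = 0.000186), whereas miR-92a from the same cluster had 10577, 10474 and 13487 CPM in leucocytes and 6822, 14657, 11352 and 15931 CPM in plasma, overlapped, and gave -1.89 by TMM and 0.08 by library size. Outside these families, miR-185 (log2 fold change -3.39, SE 0.296, adjusted p = 0.000102), miR-6120-3p (log2 fold change -3.35, SE 0.344, adjusted p = 0.000143) and the ruminant name miR-2285bc (log2 fold change -3.19, SE 0.296, adjusted p = 0.000115) were stable, with 2591 to 2995, 244.6 to 281.1 and 4388 to 5174 CPM in leucocytes. Of 44 miR-2284 and miR-2285 names tested, a family expanded in ruminants with near-identical members, 28 were called in leucocytes and none in plasma. Of the 28, 17 had no read in any plasma library. Under 10 reads in each were found for 19, as for 4 of the 5 stable ones. The other 9 calls had at least 10 reads in some plasma library. The filter asks for 3 libraries, so some of these 9 also needed leucocyte reads to pass.

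The classical white cell miRNAs did not stand out by their share of all reads. The 8 names of the leucocyte list summed to 3.08 to 4.26% of leucocyte reads and 3.14 to 4.49% of plasma reads, ranges that overlap. Erythroid names took 44.5 to 55.4% of leucocyte reads and 8.98 to 24.1% of plasma reads. The overlap therefore depends on counting these reads in the whole. By TMM 6 of 8 were called in leucocytes, beside 40.4% of all names tested, but none was in every fit, beside 9.17%. The median log2 fold change of the list was -1.98 by TMM and -0.05 by library size. MiR-150, of mature lymphocytes, had 6932, 7544 and 8261 CPM in leucocytes and 2618, 4800.5, 5730.0 and 6074 CPM in plasma, without overlap (log2 fold change -2.63, SE 0.300, adjusted p = 0.00024). MiR-142-5p, made in all blood cells, ran from 6101 to 18705 CPM in leucocytes and from 7417 to 10936 CPM in plasma (log2 fold change -2.34, SE 0.422, adjusted p = 0.0021), and its 3p arm gave -2.59 (SE 0.478, adjusted p = 0.00224). MiR-342 (log2 fold change -1.95, SE 0.355, adjusted p = 0.00212), miR-146a (log2 fold change -2.0, SE 0.282, adjusted p = 0.000817) and miR-146b (log2 fold change -1.31, SE 0.439, adjusted p = 0.0301), the last of which turned to 0.67 by library size, overlapped as well. MiR-155, induced on activation of lymphocytes, gave -1.13 (SE 0.477, adjusted p = 0.0683) and was not called. MiR-223, the granulocyte miRNA, had 25805, 10653, 11327 and 11968 CPM in plasma, more in each library than the 8348, 9128 and 7421 CPM of leucocytes, and its TMM value of -1.04 (SE 0.463, adjusted p = 0.0822) missed the threshold and turned to 0.85 by library size. MiR-21-5p, abundant in both, also gave opposite signs, with 112178, 76361, 76273 and 74652 CPM in plasma and 38144, 39926 and 39023 CPM in leucocytes, -0.80 (SE 0.320, adjusted p = 0.0587) by TMM and 1.12 by library size. In let-7g the CPM overlapped (21348, 16024, 16948 and 27280.3 in plasma, 15357, 19232 and 18155 in leucocytes), as in miR-186 (21684, 11902, 13163 and 15021 CPM in plasma, 17974, 17829 and 17377 CPM in leucocytes), and the TMM values of -1.70 and -2.11 were called in leucocytes but were not stable.

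**Figure D4:**
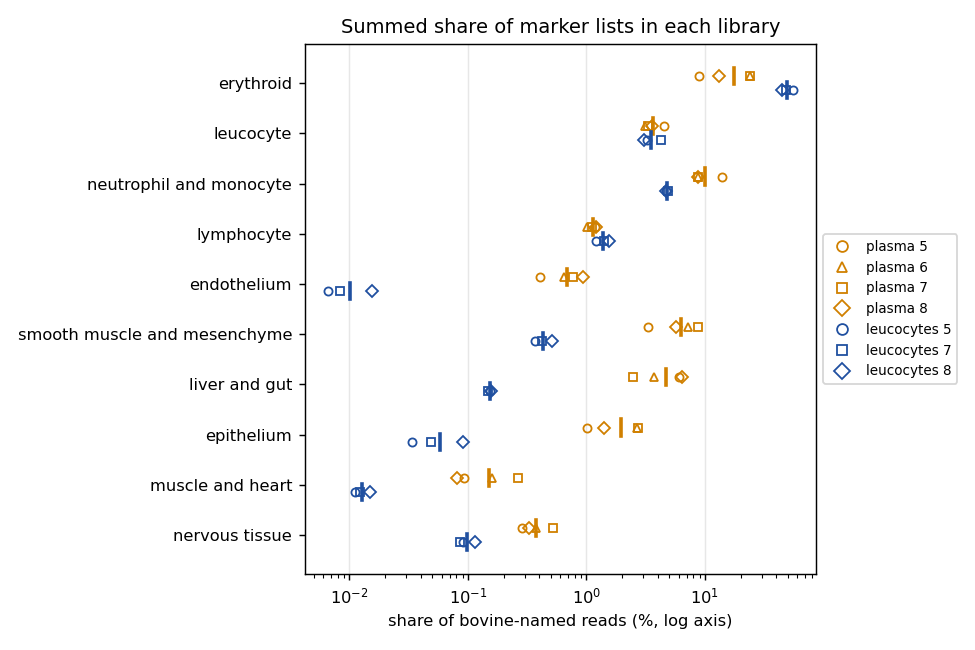
Share of bovine-named reads (x, log axis, in %) of 10 lists of marker miRNAs (y) in each plasma (orange) and leucocyte (blue) library, with a bar at each group mean. The erythroid list lies at 44.5 to 55.4% in leucocytes and 8.98 to 24.1% in plasma, the leucocyte list overlaps, and the liver, epithelial, endothelial and muscle lists lie higher in every plasma library than in any leucocyte library.

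Within each sample type the libraries were not alike. In 52 of the 81 plasma names, libraries 6 and 7 were both above libraries 5 and 8, and in 11 names both were below. The counts were 16 and 2 for the 40 stable leucocyte names and 42 and 19 for all 176 leucocyte names. Libraries 6 and 7 had 613273 and 678183 reads against 2510751 and 1989531, and they also held more miR-451. Among leucocytes, library 8, the shallowest, was highest in 69 of the 81 plasma names, with a median of 1.83 times the mean of libraries 5 and 7, against 1.12 times for the 40 stable leucocyte names. It was highest in 20 of these 40 and in 77 of all 176 leucocyte names. The part of depth or of red cells in these orders was not tested. The median SD of log2 CPM between libraries was 0.701 in plasma and 0.256 in leucocytes over 225 names. At equal depth it was 0.569 and 0.248. Correlations of log2 CPM across the 225 names, which are not independent replicates, were 0.911 to 0.977 between plasma libraries, 0.988 to 0.996 between leucocyte libraries and 0.738 to 0.843 between the types.

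Leucocyte libraries held more names, and a few names took more of their reads. At least 2 reads were found for 368, 342, 347 and 360 names in plasma (354 ± 11.9, SD, n = 4) and for 588, 588 and 559 in leucocytes (578 ± 16.7, n = 3), without overlap (exact two-sided permutation test, p = 0.0571, the smallest that 4 against 3 libraries allow). When all were thinned to 613273 reads, the counts were 313, 342, 340 and 322 in plasma and 308, 310 and 325 in leucocytes, which overlap (exact p = 0.229), so the difference was not detectable at equal depth. Names with no read in any plasma library numbered 224, but only 7 of them had a leucocyte mean above 3.0 CPM, the mean level that 3 reads make in a plasma library. The highest, named for that reason, was miR-2320-3p with 8.57 ± 0.670 CPM (n = 3), at least 2.85-fold higher in leucocytes. The 10 most abundant names took 47.3, 53.1, 53.6 and 48.2% of plasma reads and 74.4, 71.3 and 69.6% of leucocyte reads (exact p = 0.0571). Without the erythroid names the shares were 43.3 to 45.8% and 49.9 to 51.9%.

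MiRNAs of the same cluster, tested names within 10 kb on one strand of UMD3.1, numbered 43 with 137 names. All tested names were called in plasma in 8 clusters, 4 of them of 2 names, and in leucocytes in 12, 8 of them of 2 names. One of the 12 is no true cluster, since miR-2285ai-5p and miR-2284ac overlap at a single locus and share their values. Over all names tested 18.6% were called in plasma and 40.4% in leucocytes, and no test was made on clusters. The plasma clusters were those of miR-143, miR-200a, miR-141, miR-302, miR-183, miR-1, miR-195 and miR-125a, and the leucocyte clusters include those of miR-17, miR-106b, miR-15b and miR-451. All names of the plasma clusters were stable, as were those of the miR-106b and miR-15b clusters. In the miR-17 cluster 2 of 7 names were stable and in the miR-451 cluster 1 of 2. Opposite calls within a cluster were seen by TMM in 2 cases, miR-192 with miR-194 and the large imprinted cluster on chromosome 21. In neither was a leucocyte call stable. MiR-194 turned to 0.93 by library size, and both leucocyte calls on chromosome 21 had under 10 reads in every plasma library. These cases therefore do not establish opposite directions.

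The arms of a hairpin did not always keep their ratio. Of 16 hairpins with both arms read in every library, the log2 ratio of 5p to 3p reads did not overlap between the groups in 8. For miR-199a it was -3.69 ± 0.477 (SD, n = 4) in plasma and -9.85 ± 0.778 (n = 3) in leucocytes, so the 5p arm was relatively higher in plasma, yet the 3p arm of miR-199a is known to share its sequence with the miR-199b hairpin, so its reads cannot be placed. The ratio of miR-423 was -0.15 ± 0.387 in plasma and -1.41 ± 0.340 in leucocytes. In the other direction, miR-296 had -2.99 ± 0.571 and -0.12 ± 0.243, and miR-30b had 7.36 ± 1.94 and 10.2 ± 0.161, where plasma libraries 5 and 8 were lowest. MiR-30b-3p had 4.89 CPM in plasma library 6, the level that 3 reads make there, and 7.37 CPM in library 7. The ratios of miR-30b in these 2 libraries thus rest on few reads, and its lack of overlap is uncertain. The median absolute difference over the 16 hairpins was 0.73. A ratio within a library does not depend on its scaling, and no test was made on these ratios.

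**Figure D5:**
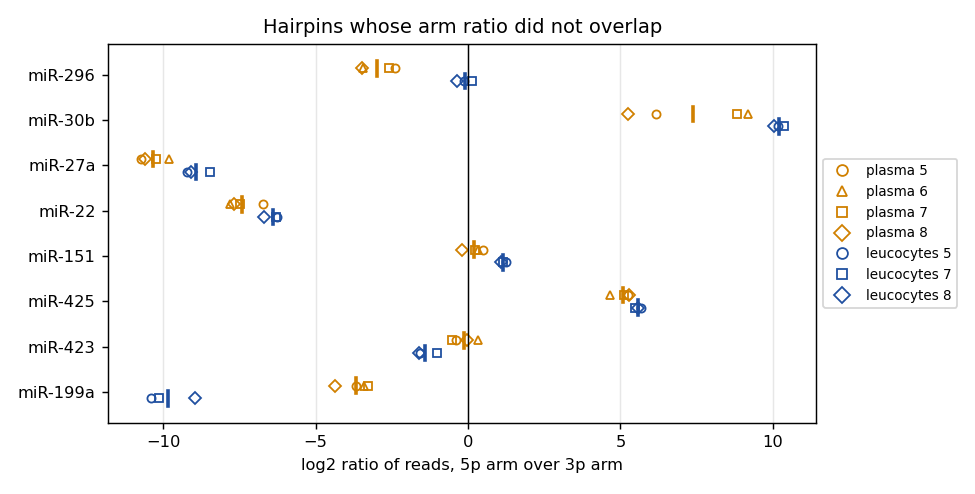
Log2 ratio of 5p to 3p reads (x axis) in each plasma (orange) and leucocyte (blue) library for the 8 hairpins (y axis) whose groups did not overlap, with bars at the group means. MiR-199a and miR-423 lie higher in plasma and the other 6 lie lower.

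The same contrast was made in the forage libraries of these cows, 4 of plasma and 3 of leucocytes. There 67 names (15.8% of 424 tested) were higher in plasma and 206 (48.6%) in leucocytes. Of the HG plasma names, 58 were also called on FD (71.6% of the HG and 86.6% of the FD calls), as were 125 of the leucocyte names (71.0% and 60.7%), and none was called in the opposite direction. In the test of the interaction of diet and sample type, edgeR called 0 of 491 names (0% called) at an adjusted p under 0.05. The unadjusted p was under 0.05 in 63, and DESeq2 called 11. The smallest adjusted p of edgeR was 0.156, so a plasma to leucocyte difference particular to the high-grain diet was not detected for any name by this test. The fit did not use that the libraries of both diets come from the same cows.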

How the data were processed

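Plasma and leucocyte RNA (NucleoSpin Plasma miRNA and NucleoSpin miRNA kits) was made into libraries with the NEXTflex kit, sequenced as single reads, demultiplexed with bcl2fastq 2.20, trimmed with Skewer and assigned by sRNAbench with Bowtie to bovine and human names of miRBase on UMD3.1 by the authors. The authors deposited, per library, whole read counts, in which a read counts at each name it matches, and estimated counts, in which it is divided among those names. The deposited scaled reads (a score per 1000000 reads) and the tables normalized within each sample type were not used. Estimated counts of bovine names were rounded and tested with edgeR 4.0.16 (R 4.3.3, quasi-likelihood, robust, TMM, sample type, the 7 HG libraries, at least 10 reads in at least 3 libraries), with Benjamini-Hochberg adjusted p under 0.05 and an absolute log2 fold change of at least 1. The plan named the column of divided reads that proved not to be whole, hence the rounding. DESeq2 1.42.0, other scalings, filters, undivided counts, thinned libraries and left-out libraries were alternatives. The interaction used all 14 libraries. On simulated data with log2 changes of 2 set in 183 of 403 names, edgeR recovered 91.3% with 2.34% false calls in the plasma to leucocyte contrast. At log2 changes of 1, set in 186 of 402 names, it recovered 24.2%. The simulated spread was below that of the data, whose fitted common biological coefficient of variation was 0.69. No shift of composition between the types was set, so these rates may be better than in the data.

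The members and the 27 lists were chosen with earlier results of these data known. The text draws on 149 names given by a rule: the 10 most abundant in each type, the 12 largest changes each way of at least 100 CPM without overlap, list members by abundance, and hairpins by arm ratio. Some names outside it are marked as picked later. Depth was 613273 to 2510751 reads in plasma and 18553330 to 38088063 in leucocytes. Libraries of a group are taken as separate cows, and p-values measure the spread between these libraries. Reads carry no molecular identifiers, so floors cover counting error only. The labels do not say that equal numbers are the same cow. With 4 cows in the study, the plasma and leucocyte groups share animals, which the main fit does not use. The block by number left 52 plasma calls, against 77 in the same libraries unblocked. Over 225 names, deviations of same-numbered libraries from their group means correlated at 0.18, -0.14 and -0.04. Mature miRNA sequences, and their length and GC content, were not used here.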

Additional observations from a re-analysis of the deposited data

Results flagged for a closer look

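In 69 groups of 4 plasma libraries, 3 values stood farther from the nearest library than Dixon's 95% limit allows, which chance does in about 1 in 20 groups. These were miR-21-5p in library 5 (112178 CPM, with 74652 to 76361 CPM in the others), miR-223 in library 5 (25805 CPM, with 10653 to 11968 CPM in the others) and miR-10b in library 8 (7598 CPM, with 3999.6 to 4469 CPM in the others). Leucocyte groups of 3 were not tested in this way.

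Reads were also assigned to human names. Of these, 74 had no bovine name at their position and more than 3 reads in an HG library, above the limit that a count of 0 allows. The most read in plasma was hsa-let-7d-3p, with 12607, 3465, 4459 and 17245 reads in plasma libraries 5, 6, 7 and 8 and 3236, 3728 and 2259 reads in leucocyte libraries 5, 7 and 8, although the leucocyte libraries were far deeper.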

How the results depend on the processing

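Names called in plasma and in leucocytes moved by more than 1.5 times from 81 and 176 in these cases: leucocytes 106 with DESeq2, plasma 142 and leucocytes 73 by library size, leucocytes 102 by library size without erythroid names, leucocytes 104 with at least 50 reads in 3 libraries, leucocytes 73 with thinned leucocyte libraries, and plasma 52 with the replicate block (77 and 172 for libraries 5, 7 and 8 unblocked, added after seeing the data). Leaving out 1 library gave 42 to 100 plasma calls and 71 to 197 leucocyte calls. The lowest came without leucocyte library 5 (42 and 71), 7 (43 and 72) or 8 (50 and 74), where the filter on 3 libraries then also needs reads in plasma. For the interaction of diet and type, 0 calls became 11 with DESeq2, and leaving out 1 library gave 0 to 2, with the 2 without FD plasma library 2. The difference in names detected (-224) was -179 at a minimum of 10 reads and turned to 14.9 at equal depth. The difference in the share of the 10 most abundant names (-21.2 percentage points) was -6.51 without erythroid names and -15.4 with undivided counts. No other alternative moved a count of calls past 1.5 times or a difference past its spread.

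For 67 miRNAs described by their fold change, 1471 values were recomputed, of which 1372 kept direction and side of the threshold, 76 fell below it, 8 passed it and 15 turned sign. By library size the turned values were 0.21 for let-7g, 0.67 for miR-146b, 0.73 for miR-155, 0.93 for miR-194, 1.12 for miR-21-5p, 0.85 for miR-223, 0.17 for miR-30e-5p, 0.72 for miR-363 and 0.083 for miR-92a. By library size without erythroid names they were 0.055 for miR-146b, 0.24 for miR-194, 0.40 for miR-21-5p, 0.10 for miR-223 and 0.061 for miR-363, and with all 14 libraries 0.0042 for miR-21-5p. With undivided counts, 19 of 436 names moved by over 0.5 relative to the median, among them let-7e from 2.15 to 1.32. The causes were not tested. Depth limits plasma, where 48 of the 176 leucocyte calls had no read.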

Other observations

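The other lists of the 27 are given by their counts of calls under TMM, beside 18.6% of all names in plasma and 40.4% in leucocytes. Milk and mammary names (6 tested) had 5 in plasma and 0 in leucocytes, of which miR-200a, miR-200b, miR-200c and miR-375 are also in the epithelial list. Neutrophil and monocyte names (7 tested) had 2 in plasma and 0 in leucocytes, with 8.69 to 13.8% of plasma reads and 4.65 to 4.91% of leucocyte reads, most of them miR-21-5p and miR-223. Lymphocyte names (7 tested) had 0 in plasma and 4 in leucocytes, with 1.02 to 1.21% of plasma reads and 1.20 to 1.56% of leucocyte reads.

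Let-7 and miR-98 (9 tested) had 1 name in plasma and 3 in leucocytes, and took 6.18 to 12.3% of plasma reads and 4.43 to 5.59% of leucocyte reads. MiR-23, miR-24 and miR-27 (7 tested) had 1 and 0, with 8.09 to 13.7% of plasma reads and 1.27 to 2.14% of leucocyte reads. MiR-26 (2 tested) had 0 and 1, miR-29 (5 tested) 1 and 0, miR-30 (7 tested) 2 and 3, miR-181 (4 tested) 0 and 2, miR-221 and miR-222 (2 tested) 0 and 2, miR-374 and miR-421 (4 tested) 0 and 3, and miR-378 (3 tested) 0 and 0.

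The imprinted DLK1-DIO3 cluster had 44 names with reads, of which 25 were tested, 6 called in plasma and 2 in leucocytes. It summed to 0.0395 to 0.116% of plasma reads and 0.00828 to 0.00867% of leucocyte reads. Bovine names from miR-2286 to miR-2489 (54 tested) had 2 in plasma and 28 in leucocytes, and names from miR-11970 to miR-12070 (23 tested) had 2 and 10. Of these leucocyte calls 25 of the 28 and all 10 had under 10 reads in every plasma library and passed the filter through the leucocyte libraries alone, as had both leucocyte calls of the DLK1-DIO3 cluster, so these counts say nothing of the lists. Of the 13 names read in plasma and in no leucocyte library, the most read were bta-miR-10182-5p, with 88 reads of 1 distinct sequence in library 5, and bta-miR-1224, with 84 reads of 1 distinct sequence in library 8. Both were named after their values were seen.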
